A study of Homo sapiens with 8 samples.

Results

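Crizotinib-resistant erCriz0 cells were compared with the treatment-naive H3122 cells from which they were derived, gene by gene for RNA and peak by peak for H3K27ac. The members were all features of the deposited table that passed a level minimum in at least 1 of its 4 lines (naive, erCriz0, erAlec0 and erLor0). These were 12705 of 43869 genes and 86315 of 126470 H3K27ac peaks. H3122 is an established lung adenocarcinoma line that carries an EML4-ALK fusion. Naive cells carried no selection by an inhibitor, while erCriz0 cells had evolved resistance in 0.5 µM crizotinib through a gradual increase of the dose. The erAlec0 and erLor0 lines, given beside them for some genes, had evolved resistance in 2 µM alectinib and in 2 µM lorlatinib, which are other ALK inhibitors. All samples of the series were kept in RPMI medium with serum and in 0.1% DMSO, and RNA was taken after 48 h without inhibitor. No such break is stated for chromatin in the sources used here, and the erCriz0 chromatin sample is labelled with 0.5 µM crizotinib. Inhibitor exposure may therefore differ between the RNA and H3K27ac values that are set side by side below. Each line had 1 RNA column and 1 H3K27ac column, matched to each other by the name of the line, and whether RNA and chromatin came from the same culture is not stated in the sources used here. With 1 library per line and assay, no difference below has a replicate check and no test between the lines was possible. The erCriz0 line is a single evolved population. A second crizotinib-resistant line of the series, erCriz1, was not analysed here, so what is particular to erCriz0 cannot be told apart here from what crizotinib selection does in general.

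The EML4-ALK fusion protein is a kinase that is active without ligand and signals through the RAS-ERK, JAK-STAT and PI3K pathways. Crizotinib occupies the ATP pocket of ALK and of related kinases such as MET and ROS1. Acetylation of lysine 27 on histone H3 marks active promoters and enhancers, so H3K27ac peaks show where regulatory DNA is in use near a gene. Values are rlog values, which are on a log2 scale after scaling by library and after shrinking differences of features with few reads. A difference of 1, corresponding to 2-fold on that scale, was the limit at which a gene or peak was counted as changed.

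In the RNA, 336 of 12705 genes (2.64%) rose by 1 or more in erCriz0 and 210 genes (1.65%) fell by 1 or more. The rises reached further than the falls. The highest difference was 5.62 and the lowest -3.31, around a median of -0.02 and with a standard deviation across genes of 0.49. A limit of 2 left 63 genes that rose and 8 that fell. Of the 10 lung epithelial markers 8 reached the level minimum, 1 of them rose and none fell, with a median of 0.02. EPCAM was at 12.34 in naive and 12.64 in erCriz0 cells, KRT18 at 14.66 and 14.68, and NKX2-1, the lung lineage factor, at 8.68 and 8.67. MUC1 rose from 9.08 to 10.96, and KRT7 was at 13.93 and 13.41. Of the 10 leukocyte markers, 9 were in the table and none reached the level minimum. PTPRC and MS4A1 were listed at 0 in both lines. Of the 10 fibroblast markers, 6 were in the table and only COL1A1 reached the minimum, at 9.49 in naive and 9.71 in erCriz0 cells. The summed linear level of the list was 734 in naive and 857 in erCriz0 cells for fibroblast markers and 28.1 and 27.2 for leukocyte markers. It was 143 and 87.5 for endothelial, 69.9 and 103 for neuroendocrine, 601 and 747 for squamous or basal and 68577 and 67420 for lung epithelial markers. Their part in the results below was not tested. In RNA from whole cultures, fewer cells of a type and less RNA per cell cannot be told apart. The depth of the libraries is unknown, since the deposited values are already scaled.

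**Figure D1:**
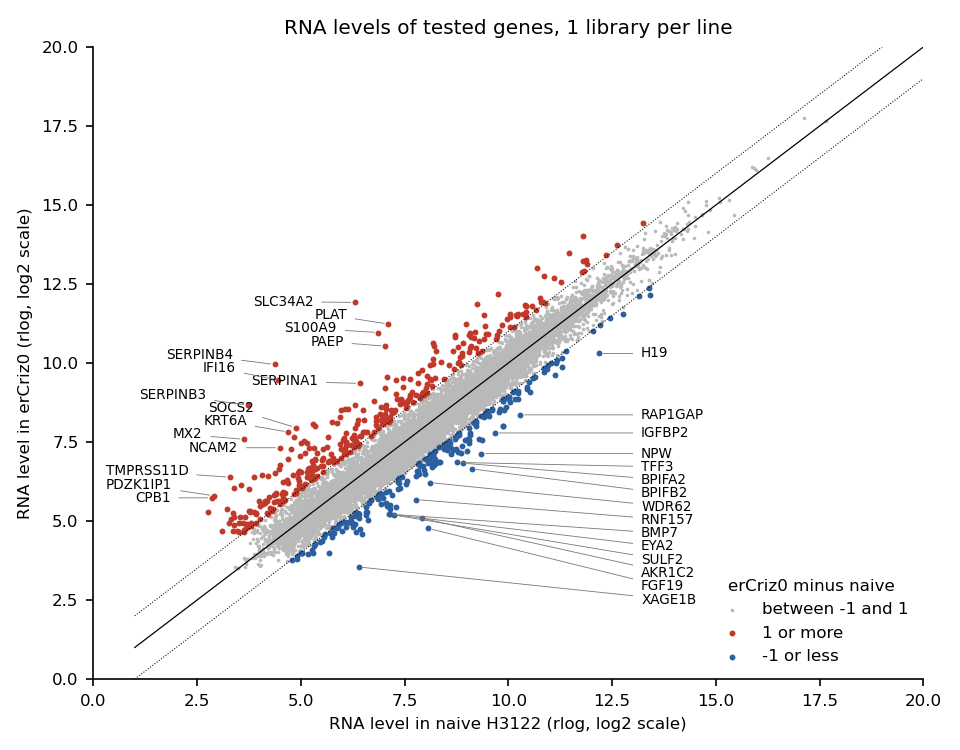
RNA level of each tested gene in naive H3122 cells (horizontal) and in erCriz0 cells (vertical), both as rlog on a log2 scale, with 1 library per line. The dotted lines mark differences of 1 and -1, and labels name the 15 genes with the largest rises and the 15 with the largest falls, from SLC34A2 at 5.62 to FGF19 at -3.31.

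The gene with the largest rise was SLC34A2, the sodium-phosphate cotransporter of alveolar type II cells. Its level was 6.30 in naive and 11.92 in erCriz0 cells, a difference of 5.62, against 7.37 in erAlec0 and 6.76 in erLor0 cells. Of its 10 tested peaks, 4 rose and none fell. SERPINB4 and SERPINB3, neighbouring genes for squamous cell carcinoma antigens that inhibit proteases, followed at differences of 5.58 and 4.94. SERPINB4 went from 4.37 to 9.95 and SERPINB3 from 3.72 to 8.67. In erAlec0 and erLor0 cells both genes stayed within 0.77 of naive cells. These genes are near-identical copies, so their reads may have been split between them. The 250 bases before their RefSeq starts are shown because they document this likeness: the RefSeq sequences (GRCh38.p14, minus strand, chr18:63661894-63662143 and chr18:63644257-63644506) were 98.8% identical, with capitals at the 3 bases that differ.
SERPINB3: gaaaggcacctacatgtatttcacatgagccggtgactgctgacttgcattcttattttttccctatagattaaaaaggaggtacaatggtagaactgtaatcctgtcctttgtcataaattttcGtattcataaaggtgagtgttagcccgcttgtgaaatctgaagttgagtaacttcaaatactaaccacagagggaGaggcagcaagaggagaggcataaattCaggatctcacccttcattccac
SERPINB4: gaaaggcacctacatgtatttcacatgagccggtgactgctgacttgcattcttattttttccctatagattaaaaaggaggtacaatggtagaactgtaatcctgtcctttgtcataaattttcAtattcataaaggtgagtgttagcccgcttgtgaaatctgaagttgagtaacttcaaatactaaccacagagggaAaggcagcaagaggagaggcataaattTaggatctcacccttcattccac

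Both starts lay in peaks that were among the 10 peaks with the largest rises. The peak over the SERPINB3 start, chr18:63654732-63662771, went from 5.94 to 9.21, and the peak over the SERPINB4 start, chr18:63637604-63649448, from 6.53 to 9.69. All 4 tested peaks of SERPINB4 and all 6 of SERPINB3 rose, but these counts overlap, since both start peaks are paired with both genes. In erAlec0 and erLor0 cells the 2 start peaks were lower than in naive cells by at least 0.55.

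IFI16, a sensor of foreign DNA that interferon induces, rose by 5.02, from 4.44 to 9.46. MX2, an interferon-induced GTPase that restricts viruses, rose by 3.95, from 3.63 to 7.59, while it stood at 3.65 in erAlec0 and 3.69 in erLor0 cells. PLAT, which encodes tissue plasminogen activator, rose by 4.12, from 7.11 to 11.23. All 6 tested peaks of PLAT rose. S100A9, a subunit of calprotectin, rose by 4.09, from 6.87 to 10.97, yet neither of its 2 tested peaks changed by 1. The remaining genes of the 15 with the largest rises were PAEP (3.50), KRT6A (3.11), TMPRSS11D (3.09), SOCS2 (3.07), SERPINA1 (2.94), PDZK1IP1 (2.89), CPB1 (2.87) and NCAM2 (2.83). PAEP encodes glycodelin, TMPRSS11D an airway trypsin-like protease and SERPINA1 the secreted inhibitor of neutrophil elastase. NCAM2, a neural cell adhesion molecule, went from 4.49 to 7.32, and all 5 of its tested peaks rose. PAEP went from 7.03 to 10.53 and was as high in erAlec0 cells, at 10.39.

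The largest fall was that of FGF19, a ligand of FGFR4, from 8.07 to 4.77, a difference of -3.31. It was at 5.12 in erAlec0 and 5.40 in erLor0 cells. None of its 4 tested peaks changed by 1 or more, and the peak nearest to its start went from 4.69 to 5.54. XAGE1B, a cancer-testis antigen, fell by 2.85 and AKR1C2, an aldo-keto reductase of steroids, by 2.84. BPIFB2 and BPIFA2, secretory proteins of the airway and salivary glands, fell by 2.48 and 2.09. The peak over the BPIFB2 start was at 10.13 in naive and 10.45 in erCriz0 cells. The other falls among the 15 were NPW (-2.22), RNF157 (-2.09), SULF2 (-2.06), RAP1GAP (-1.93), EYA2 (-1.92), TFF3 (-1.90), IGFBP2 (-1.90), BMP7 (-1.89), WDR62 (-1.89) and the imprinted RNA H19 (-1.89). IGFBP2, which binds insulin-like growth factors, and H19 were among the falls at which H3K27ac fell too. At IGFBP2, 14 of 26 tested peaks fell and none rose. At H19, 5 of 8 tested peaks fell.

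The counts of this and the following lists stand beside 2.64% of all tested genes that rose and 1.65% that fell. At 1.65% few falls are due in lists of this size, so a list without falls is not read as a result. Interferon-stimulated genes held more changed members than any other pathway list, with 17 of 36 tested members up (47.2%) and none down. Type I interferon acts through the kinases JAK1 and TYK2 and a complex of STAT proteins with IRF9. This complex binds the interferon-stimulated response element (ISRE) before many of these genes. The median difference of the list was 0.93, against -0.02 over all tested genes, and 35 of its 36 members were higher in erCriz0 cells. IFI16 and MX2 led it, followed by GBP2, a guanylate-binding GTPase, which went from 5.07 to 7.54. IFITM1 went from 4.69 to 6.97 and IFITM3 from 3.76 to 6.02. Both encode membrane proteins that block virus entry. Their sequences are alike, so reads of IFITM1, IFITM2 and IFITM3 may be shared. Among the other members that rose were SAMD9 (1.68), GBP1 (1.48), MX1 (1.48), IFIT3 (1.47), IFI6 (1.43), IFIT2 (1.42), SAMD9L (1.31) and UBE2L6 (1.26). Transcription factors that carry the interferon signal did not reach the limit. STAT2 was at 8.85 and 9.19, IRF9 at 4.73 and 4.77 and IRF1 at 8.17 and 8.83. Neither did ISG15, at 8.38 and 8.96, or OAS1, at 6.60 and 6.93, reach it. In erAlec0 and erLor0 cells the median of the list was -0.02 and -0.14, relative to the same naive library.

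The H3K27ac peaks at the starts of interferon-stimulated genes were higher as well. Of the 31 list members with a tested peak within 1 kb of the start, 13 had a peak that rose and none one that fell, with a median of 0.81. Over all 11256 tested genes with such a peak, 4.06% had one that rose and 0.364% one that fell, and the median was 0.35. The peak at the MX2 start, chr21:41361068-41364513, went from 5.76 to 7.84. A run of 7 neighbouring raised peaks covered the IFIT gene cluster, with a median of 1.30, and the RNA differences of IFIT2, IFIT3 and IFIT5 there were 1.42, 1.47 and 0.49. Peaks at the starts of UBE2L6 (2.04), IFIT3 (1.38), IFI16 (1.25) and IFI6 (1.11) also rose, whereas the one at IFIT2 differed by -0.48.

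The 250 bases before the starts of 4 of these genes are given to show where the ISRE letters, GAAANNGAA on either strand, occur. Capitals mark these matches. They are RefSeq sequences of GRCh38.p14, for IFI16 at chr1:159008741-159008990 (plus strand), IFIT3 at chr10:89327747-89327996 (plus strand), IFI6 at chr1:27672193-27672442 (minus strand) and GBP1 at chr1:89065209-89065458 (minus strand).
IFI16: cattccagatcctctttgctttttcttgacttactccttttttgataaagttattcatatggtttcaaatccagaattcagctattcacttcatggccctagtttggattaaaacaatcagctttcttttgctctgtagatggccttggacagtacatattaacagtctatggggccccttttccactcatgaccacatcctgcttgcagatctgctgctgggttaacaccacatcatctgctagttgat
IFIT3: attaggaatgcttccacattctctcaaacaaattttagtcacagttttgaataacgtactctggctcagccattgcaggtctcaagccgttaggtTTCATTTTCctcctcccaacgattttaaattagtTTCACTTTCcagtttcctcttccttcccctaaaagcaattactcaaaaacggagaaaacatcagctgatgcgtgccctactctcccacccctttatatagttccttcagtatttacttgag
IFI6: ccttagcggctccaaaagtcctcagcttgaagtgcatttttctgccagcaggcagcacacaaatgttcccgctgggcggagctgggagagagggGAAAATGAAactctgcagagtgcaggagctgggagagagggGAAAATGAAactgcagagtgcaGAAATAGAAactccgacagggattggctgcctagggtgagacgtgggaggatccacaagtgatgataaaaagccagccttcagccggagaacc
GBP1: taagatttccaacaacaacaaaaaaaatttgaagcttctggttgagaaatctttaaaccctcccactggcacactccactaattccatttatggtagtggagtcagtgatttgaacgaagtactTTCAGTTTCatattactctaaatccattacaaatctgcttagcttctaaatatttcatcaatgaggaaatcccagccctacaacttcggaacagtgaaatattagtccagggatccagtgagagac

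IFI6 held 3 matches, IFIT3 held 2 and GBP1 held 1 in these bases, and IFI16 held none. The RefSeq start of IFI16 lies inside the gene as the deposited table bounds it, away from the start peak that rose by 1.25, and the raised peak chr1:159009431-159010859 (4.57 to 6.11) lies just behind it. Of the 27305 RefSeq promoters of 300 bases, from 250 before to 50 after the start, 8.29% held the letters, and of the 9860 promoters of tested genes 6.16% did. They were held by 17 of the 29 tested interferon-stimulated genes with a RefSeq promoter and by 9 of the 13 that rose. Among all genes that rose and had such a promoter, 27 of 249 held them (10.8%), and 7 of 158 (4.43%) did among genes that fell. The list is one of genes that interferon induces, many of which are known to carry this element, so its share is a description of the list.

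Genes of antigen presentation through HLA class I, many of which interferon also induces, were higher too. Of 17 tested members, 4 rose (23.5%, beside 2.64% of all genes) and none fell, with a median of 0.55. The immunoproteasome subunits PSMB9 (4.58 to 5.92) and PSMB8 (7.14 to 8.29), the peptide transporter TAP1 (6.18 to 7.19) and the peptide-trimming protease ERAP2 (7.88 to 8.91) were those that rose. Among immune checkpoint ligands 3 of 19 rose (15.8%) and none fell. CD274, which encodes PD-L1, went from 6.30 to 7.93, and the peak at its start rose by 1.31. CEACAM1 (1.15) and NT5E (1.12), an ecto-enzyme that makes adenosine, were the others.

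**Figure D2:**
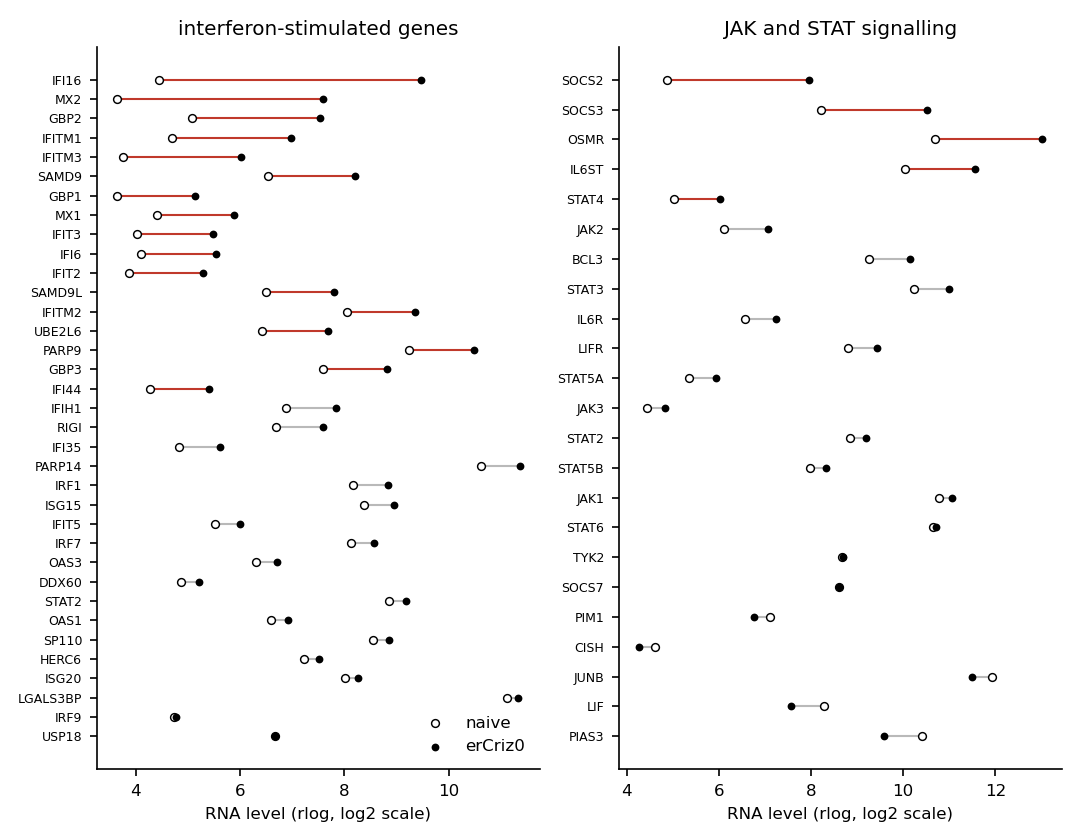
RNA levels (rlog, log2 scale) in naive cells (open points) and erCriz0 cells (filled points) of tested members of 2 lists, with 1 library per line and 1 member of both lists not drawn. Red lines join members that rose by 1 or more, 17 of 36 interferon-stimulated genes and 5 of 24 JAK-STAT genes.

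Of 24 tested JAK-STAT genes 5 rose (20.8%, beside 2.64% of all genes) and none fell. The median was 0.38 (0.37 in erAlec0 and 0.34 in erLor0 cells). OSMR, the oncostatin M receptor, went from 10.70 to 13.01, and IL6ST, the shared signalling chain gp130, from 10.05 to 11.55. SOCS2 and SOCS3, which STAT proteins induce and which dampen the pathway, went from 4.88 to 7.96 and from 8.21 to 10.53. The peak at the SOCS3 start rose by 1.10, while that at the SOCS2 start differed by 0.31. STAT4 rose by 1.01. JAK2 (6.12 and 7.07) and STAT3 (a difference of 0.76) were higher by less than the limit, and LIF, a ligand that signals through gp130, was at 8.28 and 7.57. Of 19 tested inflammatory cytokines and related receptors 4 rose (21.1%), namely the complement component C3 (2.23), IL1RL1 (1.62), IL18R1 (1.57) and ICAM1 (1.32), and none fell. Secreted chemokines were not among them. The median of this list was 0.06, with 10 members higher and 9 lower in erCriz0 cells, and none of its 15 start peaks rose.

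Of 27 tested receptor tyrosine kinases 3 rose (11.1%, beside 2.64% of all genes) and 2 fell (7.41%, beside 1.65%). ALK itself went from 8.18 to 10.65, a difference of 2.47. EGFR went from 10.84 to 11.93, and AXL from 4.62 to 5.68. The peak over the EGFR start rose by 1.32 and an intronic EGFR peak, chr7:55084995-55089263, by 1.82. KDR (-1.15) and ROR1 (-1.01) fell. ERBB3 (0.91), MET (0.72) and ERBB2 (-0.34) did not pass the limit, and EML4, the partner that gives the fusion its promoter, was at 12.30 and 13.15. ALK lies in a stretch of chromosome 2 where other genes and peaks were also higher. In the 2 Mb window from 28 to 30 Mb, 65 of 133 tested peaks rose and 1 fell, and the 9 tested genes had differences from 0.74 to 2.47. Copy number and expression per copy cannot be told apart there. Among 28 tested genes of ERK output and feedback, SPRED3 (1.87), ETV1 (1.73) and HMGA2 (1.55) rose (10.7%), none fell and the median was -0.06. DUSP6, an ERK phosphatase that ERK signalling induces, was at 11.86 and 12.65. Of the 12 tested peaks of DUSP6, 7 fell and none rose, and the peak over its start differed by 0.22.

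**Figure D3:**
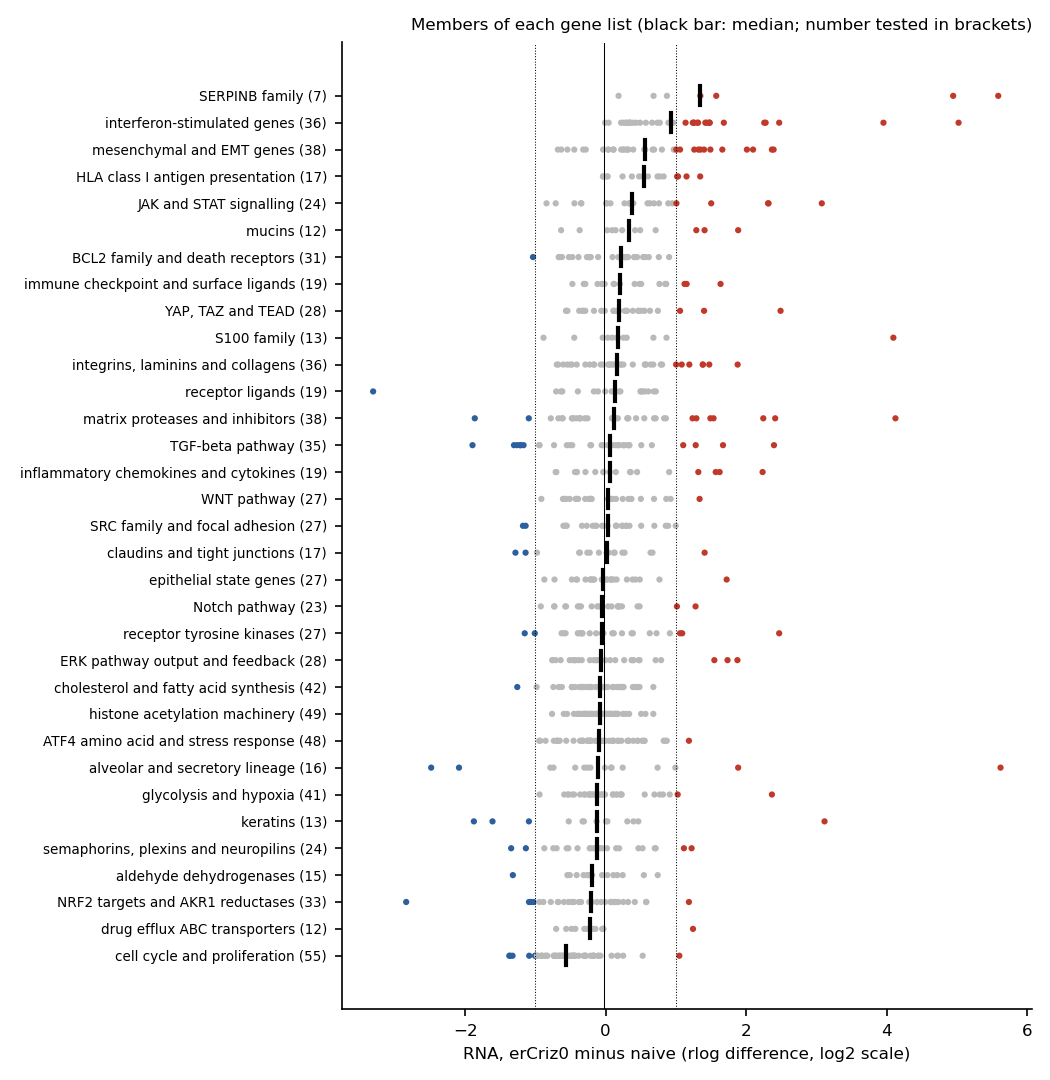
RNA differences (erCriz0 minus naive, rlog, log2 scale) of the tested members of 33 gene lists, ordered by their medians. Red and blue points are members at 1 or more and -1 or less, and the dotted lines mark these limits. The SERPINB family (median 1.35) stands at the top and cell cycle genes (median -0.56) at the bottom.

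Of 38 tested members of the mesenchymal list 12 rose (31.6%, beside 2.64% of all genes) and none fell. The median was 0.55 (0.68 in erAlec0 and 0.45 in erLor0 cells, set against the same naive library). VIM, which encodes the intermediate filament vimentin, went from 5.74 to 8.13 and LOX, a collagen-crosslinking oxidase, from 6.30 to 8.67. TNC, an extracellular matrix glycoprotein, went from 9.42 to 11.51 and the peak at its start rose by 1.24. Of the 20 start peaks of this list only 2 rose, and none fell. Their median was 0.22, beside 0.35 over all tested genes. LOXL2 (2.01), SPARC (1.66), MMP2 (1.49), WWTR1 (1.40), FN1 (1.35) and CD44 (1.32) also rose. Many of these genes are expressed by fibroblasts. Of the fibroblast markers other than COL1A1, PDGFRA was at 2.08 in naive and 2.61 in erCriz0 cells, LUM at 1.94 and 2.25, PDGFRB at 1.93 and 2.20, DCN at 1.45 and 1.64 and FAP at 0.51 and 0.68, all below the level minimum. With COL1A1 all 6 were higher in erCriz0 cells, by less than the limit, and their part in the rise of these genes was not tested. Of 27 tested epithelial genes 1 rose, CDH3 (1.72), and none fell, and CDH1 was at 11.38 and 11.39. Of 36 tested integrins, laminins and collagens 7 rose and none fell, among them ITGA1 (1.88), ITGB3 (1.47), LAMB1 (1.38) and COL6A3 (1.38). Among 38 proteases and inhibitors of the matrix 7 rose, with PLAT (4.12), the collagenase MMP1 (2.41) and the cathepsin CTSL (2.24) ahead. The trypsinogen genes PRSS2 (-1.86) and PRSS1 (-1.09) fell.

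Members of the TGF-beta list moved in both directions. Of 35 tested, 4 rose (11.4%, beside 2.64% of all genes) and 6 fell (17.1%, beside 1.65%). The BMP antagonist NOG went from 4.07 to 6.46 and FST, which binds activins, from 4.62 to 5.90. The BMP ligands BMP7 and BMP2 fell by 1.89 and 1.26, and ID3 and ID2, which BMP signalling induces, fell by 1.30 and 1.22. TGFB1 went from 10.87 to 9.70, while its receptor gene TGFBR2 went from 7.13 to 8.23 and LTBP1, which anchors the latent ligand in the matrix, from 6.94 to 8.61. Keratins changed individually: KRT6A rose by 3.11, and KRT4 (-1.87), KRT81 (-1.61) and KRT80 (-1.09) fell. The transmembrane mucins MUC1 (1.88), MUC16 (1.41) and MUC13 (1.29) rose among 12 tested.

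Of 55 tested cell cycle genes 49 were lower in erCriz0 cells, with a median of -0.56 (-0.95 in erAlec0 and -0.53 in erLor0 cells). By 1 or more, 6 fell (10.9%, beside 1.65% of all genes) and 1 rose. Those that fell were the S-phase transcription factor E2F1 (7.40 to 6.03), the licensing factor CDT1 (9.08 to 7.72), MYBL2 (9.94 to 8.61), the thymidine kinase TK1 (9.20 to 8.11), FOXM1 (10.95 to 9.95) and the ribonucleotide reductase subunit RRM2 (12.20 to 11.20). FOXM1 and RRM2 lay at the limit, and CDKN1C, which encodes the cell cycle inhibitor p57, rose by 1.05. Of 54 peaks at the starts of these genes 1 rose and none fell, with a median of 0.25, beside 0.35 and 0.364% fallen over all start peaks. All 28 tested replication-dependent histone genes, which are transcribed in S phase and were listed after their values had been seen, were lower, with a median of -0.91 (-0.74 in erAlec0 and -0.69 in erLor0 cells). Of these, 10 fell by 1 or more, H2AC13 (9.88 to 8.02) and H2BC13 (-1.79) among them. Their transcripts lack poly(A) tails and the histone genes resemble one another, so capture of their RNA and sharing of reads bear on these values, and the part of either was not tested.

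Of 33 tested NRF2 targets and AKR1 reductases 4 fell (12.1%, beside 1.65% of all genes) and 1 rose, with a median of -0.20. The falls included AKR1C2, AKR1C1 (-1.09) and AKR1C3 (-1.06), while the cystine transporter SLC7A11, an NRF2 target, rose by 1.18. The AKR1C genes are near-identical and their reads may be shared. FASN, the fatty acid synthase, was the only one of 42 tested lipid synthesis genes that fell, from 13.42 to 12.16. None of the 49 tested writers, readers and erasers of histone acetylation rose or fell. Among drug efflux transporters ABCA1 (1.24) rose, and 11 of 12 members were lower in erCriz0 cells by less than 1. In the BCL2 family BOK (-1.03) fell, 1 of 31 (3.23%), and MCL1 was at 14.32 and 15.08. Of the aldehyde dehydrogenases ALDH3B1 (-1.32) fell, 1 of 15 (6.67%). Of 41 tested glycolysis and hypoxia genes LOX and PLOD2 (1.02) rose, and of 48 targets of the stress factor ATF4 only SLC7A11 did.

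The remaining lists are given beside the 2.64% of all genes that rose and the 1.65% that fell. Of 28 tested YAP, TAZ and TEAD genes 3 rose (10.7%), with F3, the tissue factor that starts coagulation, at 2.49 ahead of WWTR1 and AXL. Of 27 WNT genes WNT5A (1.34) rose (3.7%), and of 23 Notch genes MAML2 (1.28) and NOTCH2 (1.01) did. Among 17 claudins and tight junction genes CLDN1 (1.41) rose while CLDN3 (-1.28) and CLDN9 (-1.14) fell (11.8%). Among 24 semaphorins, plexins and neuropilins NRP2 (1.22) and SEMA3B (1.11) rose and PLXND1 (-1.34) and SEMA3F (-1.14) fell. NEDD9 (-1.18) and SRC (-1.14), which act in focal adhesion signalling, fell among 27 tested. Of 13 S100 genes S100A9 alone rose, and of 19 receptor ligands FGF19 alone fell. SERPINB1 (1.57) and SERPINB8 (1.35) joined SERPINB3 and SERPINB4 as the 4 of 7 tested SERPINB genes that rose (57.1%), while the alveolar and secretory list held SLC34A2 and MUC1 up and BPIFB2 and BPIFA2 down among 16.

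Among 415 tested transcription factors 15 rose and 13 fell, with a median of -0.07. These counts are 3.61% up and 3.13% down, beside 2.64% and 1.65% over all genes. ETV1, an ETS factor downstream of ERK signalling, went from 8.91 to 10.64, and the clock factor BMAL2 from 9.09 to 10.83. RORB (1.56), GLIS3 (1.46), CEBPD (1.39), PAX5 (1.31), FOSL2 (1.28), PRDM1 (1.23), TBX15 (1.21), PROX1 (1.15), HNF4G (1.06) and BCL6 (1.02) completed the 12 with the largest rises. CEBPD, a C/EBP factor induced by STAT3, went from 8.11 to 9.50. Among the largest falls were those of SOX12 (-1.48), GATA3 (-1.39), E2F1 (-1.37), MLXIPL (-1.36), MYBL2 (-1.32), ID3 (-1.30), TBX6 (-1.29), BARX1 (-1.26), ID2 (-1.22), DBP (-1.10) and FOXO6 (-1.02). FOSL2 was the only one of 14 tested AP-1 and MAF factors that rose, from 10.20 to 11.48, and it lies in the chromosome 2 window that holds ALK. The peak at its start rose by 1.14. Of the other AP-1 and MAF factors none fell, and 11 of the 14 were lower in erCriz0 cells.

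Of the 86315 tested H3K27ac peaks, 7119 (8.25%) rose and 4924 (5.7%) fell in erCriz0 cells. Peaks within 1 kb of a protein-coding start behaved differently from the rest. Of 16282 such peaks 6.34% rose and only 0.817% fell, with a median of 0.34. The medians of exonic, intronic and intergenic peaks were -0.07, -0.07 and -0.03, and 6.24% of intronic and 7.81% of intergenic peaks fell. Peaks near starts were also stronger, with a median level of 7.53 against 4.48 in introns, and longer. With peaks split into 4 equal classes of mean level, the median of peaks near starts was higher than that of the other peaks in each class, 0.20 against -0.19 in the lowest and 0.34 against 0.20 in the highest. The share of peaks that rose by 1 or more did not follow these medians. In the highest class, which held 9759 of the peaks near starts, 3.66% of them rose against 10.0% of the other peaks. In the lowest class the shares were 8.82% and 7.80%. An offset between the libraries that depends on the height or width of a peak cannot be told apart from a rise at starts.

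The peak with the largest rise lay in an intron of FAM78B, chr1:166084491-166088157, and went from 3.28 to 7.32, a difference of 4.04. It was followed by an intronic peak of GPR39 at chr2:132561692-132565425 (4.63 to 8.34), a peak among the immunoglobulin heavy constant genes at chr14:105627187-105635625 (6.51 to 9.90) and an intronic peak of CPNE4 at chr3:132057531-132058815 (3.03 to 6.37). LYPD1, the gene nearest to the second of these, rose in RNA from 4.47 to 6.66. Of the 10 peaks with the largest rises, 8 lay over 15 kb from a protein-coding start and 2 at the SERPINB starts. The peak with the largest fall, chr14:106196566-106210853 between immunoglobulin heavy variable genes, went from 11.46 to 8.74. Next came a gene-poor stretch near LINC01440 on chromosome 20, where chr20:55539376-55540156 went from 4.95 to 2.31. Of the 10 peaks with the largest falls, 8 were lower than naive cells by 1 or more in both erAlec0 and erLor0 cells, which were compared with the same naive library. Of the 10 with the largest rises, 1 was higher by 1 or more in erAlec0 cells and none in erLor0 cells.

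Some changed peaks lay in runs. Runs of at least 5 neighbouring tested peaks that all rose, with gaps of at most 50 kb, numbered 84 and held 550 of the 7119 raised peaks (7.73%). Runs of peaks that all fell numbered 115 and held 748 of the 4924 lowered ones (15.2%). The run with the most peaks held 32 raised ones over 99.4 kb on chromosome 9, chr9:135699373-135798793, across KCNT1 and SOHLH1, with a median of 1.68. The only tested gene within 20 kb, CAMSAP1, which stabilizes microtubule minus ends, was at 10.14 and 10.43 in RNA. A run of 16 raised peaks covered MYT1, a neural zinc finger factor, whose RNA fell by 1.10. A run of 9 raised peaks (median 1.60) covered PRSS1 and PRSS2, whose RNA also fell. In contrast, runs at SERPINB3 and SERPINB4 (10 peaks, median 1.84), CHST1 (10 peaks, median 1.88, RNA 1.06) and TSHZ2 (9 peaks, median 1.40, RNA 1.28) lay at genes that rose. Over the 84 raised runs, the median of the run medians was 1.5 in erCriz0 cells, beside -0.02 for the alectinib line and -0.05 for the lorlatinib line. Over the 115 lowered runs it was -1.36 in erCriz0 cells, beside -0.97 for the alectinib line and -1.02 for the lorlatinib line, relative to the one naive library that all share.

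Genes that rose had a raised peak nearby more often than genes that fell had a lowered one, but raised peaks were also the more common over all genes. Of the 331 genes that rose and had a tested peak within 20 kb, 182 (55.0%, exact 95% binomial interval 49.5 to 60.4) had at least 1 peak that rose. Over all 12610 tested genes with a peak, 22.3% did. Of the 207 genes that fell, 51 (24.6%, interval 18.9 to 31.1) had at least 1 peak that fell, and 14.6% of all did. The intervals cover counting error only, and neighbouring genes share peaks. Genes that rose had a median of 6 tested peaks, genes that fell 8 and all tested genes 5. At the start itself 74 of 245 risen genes had a peak that rose (30.2%, beside 4.06% of all genes with such a peak) and 3 one that fell. Of 184 fallen genes 5 had a start peak that fell (2.72%, beside 0.364% of all genes with such a peak) and 10 had one that rose (5.43%, beside 4.06%), among the latter PRSS2 (2.42), RIMBP2 (2.02), CYP4F3 (1.78) and PRSS1 (1.64). These 4 were chosen for their values. Across the 11256 genes with a start peak, Pearson's r between the RNA and start-peak differences was 0.26 and Spearman's rho 0.24. Genes within these libraries are not independent replicates.

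**Figure D4:**
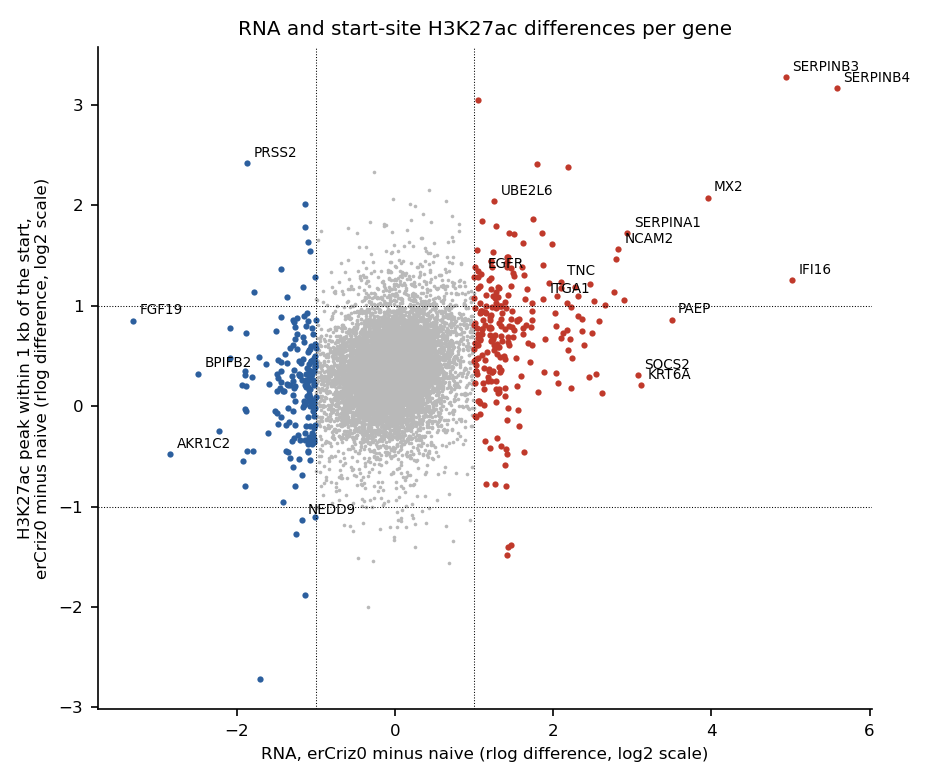
RNA difference (horizontal) and difference of the H3K27ac peak within 1 kb of the start (vertical) of 11256 tested genes, both erCriz0 minus naive in rlog on a log2 scale. Red points rose and blue points fell by 1 or more in RNA, and dotted lines mark 1 and -1. Risen genes such as SERPINB3 and MX2 spread upwards, while most fallen genes, such as FGF19 and BPIFB2, stay near or above 0 on the vertical axis.

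Raised peaks away from starts held the letters of the AP-1 motif more often than other distal peaks. AP-1 factors, dimers of FOS and JUN proteins, bind TGANTCA at many enhancers. In the central 500 bases of peaks of at least 500 bases that lay over 1 kb from a start, the letters occurred on either strand in 28.9% of 5348 raised peaks and in 14.6% of 3542 lowered ones, and in 18.9% of all 49289. The share was 16.1% at differences from -0.5 to 0, 23.1% from 0.5 to 1, 28.4% from 1 to 2 and 34.8% at 2 or more. Raised peaks were longer than all distal peaks, with medians of 1477 and 1085 bases. With distal peaks split into 3 equal classes of level, the letters were in 490 of 1886 raised peaks of the lowest class, against 16.7% of all. They were in 32.2% against 18.7% in the middle and 29.0% against 21.4% in the highest class. Among 15 other motifs, the RUNX letters TGTGGTT were in 12.3% of raised, 8.78% of lowered and 9.62% of all distal peaks. The forkhead letters TGTTTAC were in 10.5%, 7.85% and 8.58%, and the ISRE letters GAAANNGAA in 19.6%, 17.6% and 16.8%. The NKX2 letters CACTTGA were less common in raised peaks, at 10.7% against 12.8% of all. TEAD letters (GGAATG) occurred in 27.4% of raised and 26.1% of all.

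Parts of 3 of the 10 peaks with the largest rises, chosen for holding the AP-1 letters, are given with these letters in capitals. They are hg38 plus-strand sequences of the CPNE4 intronic peak (chr3:132057923-132058122), of an intergenic peak on chromosome 7 far from TAC1 (chr7:97602292-97602491) and of an intergenic peak on chromosome 10 far from PLPP4 (chr10:120343468-120343667).
CPNE4 intron: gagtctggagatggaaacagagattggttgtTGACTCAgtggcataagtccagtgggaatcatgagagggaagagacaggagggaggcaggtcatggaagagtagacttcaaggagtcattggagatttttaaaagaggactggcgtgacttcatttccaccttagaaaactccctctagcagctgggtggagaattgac
intergenic, TAC1 side: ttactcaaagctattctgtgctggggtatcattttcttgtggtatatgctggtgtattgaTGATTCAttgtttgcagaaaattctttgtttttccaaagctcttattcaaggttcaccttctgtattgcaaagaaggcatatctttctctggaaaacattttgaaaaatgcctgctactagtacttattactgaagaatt
intergenic, PLPP4 side: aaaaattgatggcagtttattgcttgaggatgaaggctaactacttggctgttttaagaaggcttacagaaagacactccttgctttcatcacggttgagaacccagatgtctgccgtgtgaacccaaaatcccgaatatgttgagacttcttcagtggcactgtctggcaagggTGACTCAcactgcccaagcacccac

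The chromosome 7 peak went from 3.69 to 6.85 and the chromosome 10 peak from 6.39 to 9.54. A match of letters is no evidence that a factor bound there.

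**Figure D5:**
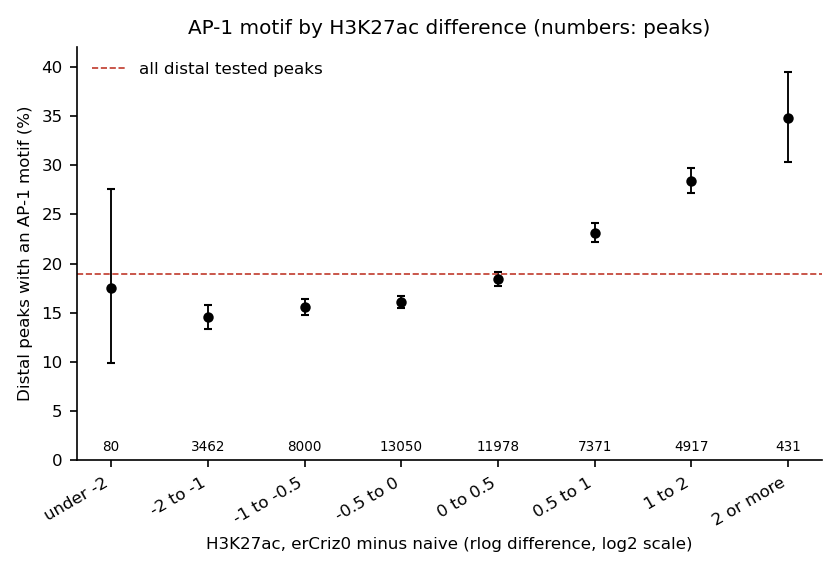
Share of distal tested H3K27ac peaks with the AP-1 letters in their central 500 bases (vertical, %) by H3K27ac difference between erCriz0 and naive cells (horizontal, rlog, log2 scale). Points are shares, bars exact 95% binomial intervals for counting error only, and numbers count peaks. The share is 14.5% from -2 to -1 and 34.8% at 2 or more, with 18.9% over all distal peaks (dashed line).

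Differences also followed position in the genome. Chromosome 20 had the lowest RNA median of the chromosomes with over 100 tested genes, -0.32. Of its 335 tested genes 21 fell (6.27%, beside 1.65% of all genes) while 7 rose. Its 2381 tested peaks had a median of -0.17, and 10.2% of them fell, beside 5.7% of all peaks. Of the 15 genes with the largest falls 5, namely BPIFB2, BPIFA2, SULF2, EYA2 and BMP7, lie there, as do E2F1, MYBL2, SOX12, SRC and the DNA methyltransferase gene DNMT3B, which fell as well. The RNA median of chromosome 20 was -0.17 in erAlec0 and in erLor0 cells. On chromosome 18, 7 of 180 genes rose (3.89%, beside 2.64% of all genes) and none fell, beside 1.65%. SERPINB3 and SERPINB4 are among the 7, and RNA counts this small are not read as a result. Of the chromosome 18 peaks 14.6% rose and 2.87% fell, beside 8.25% and 5.7% of all. Peaks and RNA did not always go together by chromosome. Chromosome 6 had a larger share of fallen peaks than chromosome 20, 11.1% of 5141, but an RNA median of 0.03. Chromosome 8 had a larger share of risen genes than chromosome 18, 4.89%. Of 923 windows of 2 Mb with at least 20 tested peaks and 4 tested genes, 52 had a median peak difference of 0.5 or more and 6 of these also a median RNA difference of 0.5 or more. The median was -0.5 or less in 22 windows, and in none of them was the RNA median that low. In the lowest window, on chromosome 19 from 20 to 22 Mb, 46 of 106 peaks fell and none rose (median -0.92), whereas its 18 tested genes, most of them zinc finger genes, had an RNA median of 0.25. Copy number was not measured in these files, and its part in these differences was not tested.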

How the data were processed

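The authors aligned ChIP-seq reads with BWA, marked duplicates with picard, called peaks with MACS2 (q below 0.05) and joined those of 4 samples into 1 set, from which blacklisted stretches were taken out before reads were counted. RNA reads were aligned with HISAT2 and counted with HTSeq-count, on hg38. Versions are not given in the sources used here. The deposited values are log2-scale rlog values from DESeq2, made by the authors, and rlog pulls differences of features with few reads towards 0. The deposited table pairs each peak with genes within 20 kb and also holds mean values and the authors' correlations, p-values and adjusted p-values, which were not used.

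Each gene and peak was taken once. Genes with a maximum of at least 4.64 and peaks with a maximum of at least 3.91 over the 4 lines were kept, and erCriz0 minus naive was computed (Python 3.11.15, pandas 2.3.3, numpy 2.4.6, scipy 1.17.1, pysam 0.24.0), without a test. Symbols came from GENCODE release 44. The steps were checked on simulated data. Named were the 15 largest rises and falls, changed members of 33 pathway lists, 12 transcription factors and 10 peaks each way, and ALK, EML4, EGFR, ERBB2 and MET. A few members that this rule names are not reported here. Another 6 lists held cell type markers. Members and lists were chosen with earlier results of these data known, and the histone list, windows, runs and motifs after the values had been seen. Alternatives were other limits, filters, scalings and pairings.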

Additional observations from a re-analysis of the deposited data

Results flagged for a closer look

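For 12 genes the difference between erCriz0 and naive cells was 1 or more in one direction while erAlec0 or erLor0 cells differed from the same naive library by 1 or more in the other. Each line had 1 library, all comparisons share the naive library, and the difference between the lines was not tested. Genes that rose in erCriz0 and were lower in erLor0 cells were TGM2, a transglutaminase (2.43 and -1.16), CTSL (2.24 and -1.09), SAMD9 (1.68 and -1.06), LRRN1 (1.62 and -1.17), MUC13 (1.29 and -1.07), NRP2 (1.22 and -1.02), the retinol dehydrogenase DHRS9 (1.11 and -1.19) and ERAP2 (1.03 and -1.15). ANGPTL2 was at 1.34 in erCriz0 and -1.05 in erAlec0 cells. In the other direction, IGFBP2 was at -1.90 in erCriz0 and 1.10 in erLor0 cells, NEDD9 at -1.18 in erCriz0 and 1.47 in erAlec0 cells, and ENSG00000285976 at -1.16 in erCriz0 and 1.14 in erAlec0 cells.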

How the results depend on the processing

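No paired analysis was possible because each line had 1 library and no test was made. At a limit of 1.5-fold, 960 genes and 17989 peaks were higher and 1082 genes and 15115 peaks lower, so that falls outnumbered rises in RNA. At a limit of 2 on the log2 scale, 63 genes and 475 peaks were higher and 8 genes and 85 peaks lower. A minimum raised by 2 left 4080 raised and 1471 lowered peaks (73.5% raised, against 59.1%), and no filter gave 7514 lowered peaks. Centring each assay on its median (-0.02 for RNA, 0.05 for peaks) gave 6367 raised and 5724 lowered peaks. Chosen after seeing the data, the peaks given to more than 6 decimals held 3912 raised and 2620 lowered ones. The share of risen genes with a raised peak was 45.9% after quantile normalization and 83.4% with a 1.5-fold limit for peaks. The share of fallen genes with a lowered peak was 12.2% over peaks paired with 1 gene, 18.6% within 5 kb and 57.5% with the 1.5-fold limit. The shares over all genes were not computed under these settings and would change with them. These values therefore cannot be set beside the 22.3% and 14.6% of all genes given above. AP-1 letters, in alternatives chosen after seeing the data, were in 18.0% of raised peaks over 300 bases (11.9% of all) and 31.8% of peaks of 1000 bases or more (21.5% of all). Other limits and filters count different features by construction, and otherwise the cause was not tested. The medians of 7 of 38 lists, all close to 0, changed sign under some setting, namely SRC family and focal adhesion, WNT, claudins, epithelial state, inflammatory cytokines, lung epithelial and squamous or basal genes. No named gene that rose or fell changed its sign after median centring or quantile normalization. Calls near the limit, such as FOXM1, RRM2, ROR1 and BCL6, were lost under some settings.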
